A study of Mus musculus with 4 samples.

Results

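The Tmed genes encode the p24 proteins, a family of small transmembrane cargo receptors of the early secretory pathway. The family was taken up because Tmed11 had the lowest knockout over wild-type ratio of all probes on these arrays, so Tmed11 was chosen by its fall and is described here without a test. The other members were taken by family name, not by their values, and the question put to them was whether they fell with Tmed11. Of the 10 mouse genes listed as members, 9 had a probe, and Tmed7 was not analysed here. These 9 genes were read by 12 of the 41174 different probes on the array, with 3 probes for Tmed2, 2 for Tmed10 and 1 for each of the others. On each of the 4 arrays all 12 probes lay well above background, in red and in green, and none was left out of a fit or saturated.

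Pancreas RNA of Cyp11a1 knockout embryos was compared with that of wild-type embryos, all of strain C57BL/6JNarl at E18.5, shortly before birth. Cyp11a1 encodes the mitochondrial enzyme that turns cholesterol into pregnenolone, the entry step of steroid hormone synthesis. Each of 4 two-colour arrays held 1 knockout extract in red and 1 wild-type extract in green, with no dye swap, so that a dye effect on a single probe cannot be told apart from genotype. The sources used here do not give the number of embryos behind an extract, the litters, or the deleted part of Cyp11a1. All ratios below are log2 of knockout over wild type, as mean ± SE from limma over 4 arrays. Adjusted p-values are limma's after Benjamini-Hochberg adjustment over all 32596 tested probes, with a threshold of 0.05.

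p24 proteins cycle between the endoplasmic reticulum (ER) and the Golgi. A GOLD domain in the lumen takes part in binding cargo and other p24 proteins, and a short cytoplasmic tail binds the COPII coat for export and the COPI coat for return. They fall into alpha, beta, gamma and delta subfamilies that assemble with each other, and loss of one subunit often lowers the protein level of its partners. Known cargo includes proteins held in the membrane by a glycosylphosphatidylinositol (GPI) anchor. In the exocrine pancreas this pathway carries large amounts of digestive enzymes towards the zymogen granules.

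Knockout extracts had median spot signals of 304 to 467 and wild-type extracts of 163 to 224, with 78.2% to 85.1% of an array's spots rated well above background. Cyp11a1 itself had a ratio of -0.16 ± 0.070 on its brighter probe (limma adjusted p = 0.179), and its second probe was well above background on 0 knockout and 1 wild-type arrays. Where these probes lie relative to the deletion is not given, so they check nothing about the labels. Of 12 measured acinar markers, 4 were called higher in knockout, Cel and Clps among them, and 1 (Pnlip) was called lower. Over all 15524 genes with a tested probe, 8.31% were called higher and 4.52% lower. The summed acinar level ran from 938500 to 1235000 intensity units in knockout and from 831700 to 934100 in wild type. None of the measured islet (6 of 7), duct (5 of 5), red cell (3 of 4), lymphocyte (3 of 4) or hepatocyte (7 of 8) markers passed the test. The log2 ratio of the summed red cell level moved between arrays, however, with 0.44, 0.38, -0.45 and 1.32 on arrays 1 to 4. Some hepatocyte genes also moved between arrays. Alb, the serum albumin gene, moved most, with ratios of 4.13, 2.70, -3.52 and 1.44 on arrays 1 to 4. Apob (brightest probe) and Ttr had no value on array 1 and stayed between -0.16 and 0.072 on arrays 2 to 4. The log2 ratio of the summed hepatocyte level was 2.155, -0.0013, -0.23 and 0.0090 on arrays 1 to 4.

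Tmed11, an alpha-type member whose human counterpart is annotated as a pseudogene, was far dimmer in knockout pancreas on every array. Its probe (A_51_P146741, RefSeq NM_026109) had median signals of 960, 1274, 1053 and 2467 in knockout on arrays 1 to 4, and 2735, 3083, 2373 and 4162.5 in wild type. The local background was 39 to 48 for knockout and 26.5 to 37 for wild type. The probe was thus well lit in both genotypes, and its fall was not a loss of signal into background.

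After normalisation the log2 level of Tmed11 was 9.53, 9.95, 9.02 and 10.84 in knockout, against 12.25, 12.26, 11.77 and 12.28 in wild type. The highest knockout level lay below the lowest wild-type level, and the spread was wider in knockout (9.84 ± 0.77) than in wild type (12.14 ± 0.25, SD, n = 4 each). The ratios on arrays 1 to 4 were -2.71, -2.30, -2.75 and -1.43, with a mean of -2.30 ± 0.19, which is 4.92-fold lower in knockout. The scanner software's own ratios, made with another background and dye correction, were -2.80, -2.36, -2.90 and -1.55. Array 4 had the smallest fall, and without it the mean was -2.59.

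Among all 32596 tested probes the Tmed11 probe ranked lowest. A fall of at least 2 on the log2 scale was held by 2 probes, 17 probes had ratios below -1 and 10 had ratios above 1. Because whole pancreas was used, fewer cells that express a gene and less of its RNA per cell cannot be told apart, here or below. The fall of Tmed11 was present both on the arrays where Alb was higher in knockout and on array 3, where Alb was lower. The part of hepatocyte RNA in the Tmed11 result was not tested.

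**Figure D1:**
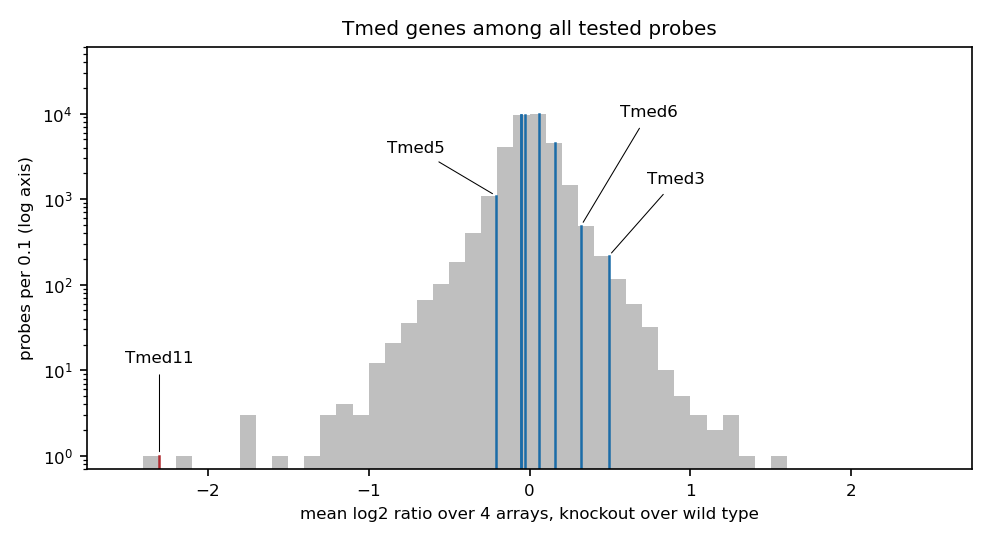
Histogram of the mean log2 ratio of knockout over wild type (x axis, bins of 0.1) for all 32596 tested probes, with the number of probes on a log axis. The red line marks Tmed11 at -2.30, and the blue lines mark the brightest probe of each other Tmed gene, which lie between -0.21 (Tmed5) and 0.49 (Tmed3).

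No other Tmed gene passed the test for a fall. Of the 11 probes for the 8 other measured genes, 0 were called lower and 1 was called higher (Tmed3), by limma's test. Over all tested probes, 10.7% were called in either direction, 4.11% lower and 6.63% higher in knockout. The 11 probes ran from -0.21 to 0.49 with a median of 0.036, against a median of 0.0050 over all tested probes. Of the 11, 4 had an unadjusted limma p under the threshold, beside 8924 of all 32596 tested probes. These 4 were Tmed5 below 0, and Tmed3, Tmed6 and the brighter Tmed10 probe above 0. No 95% interval among the 11 probes extended below -0.37, the lower end for Tmed5. These values follow the loess normalisation. With each array centred on its median instead, 10 of the 11 probes were called higher and none lower, beside 15460 called higher of all 32596 probes. The centring took in spots too dim to be tested, and the median of all tested probes then moved to 0.139. Above a mean log2 brightness of 10 the medians by brightness bin were 0.39 to 0.59.

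**Figure D2:**
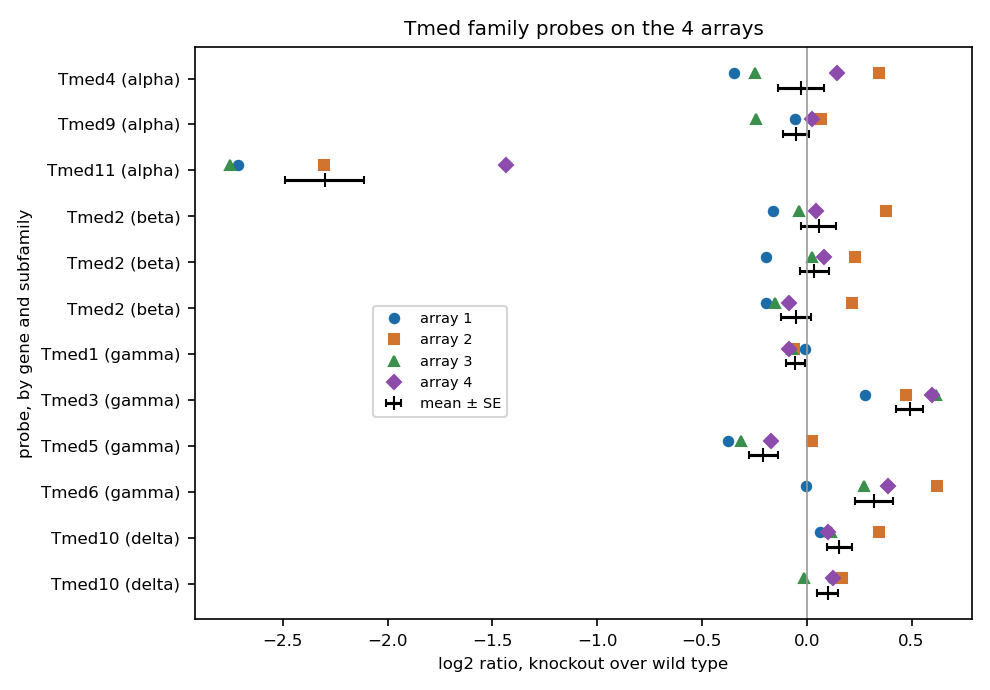
Log2 ratio of knockout over wild type (x axis) for each Tmed probe (y axis, labelled by gene and subfamily), with 1 symbol for each of the 4 arrays and the mean ± SE in black below. The 4 Tmed11 values sit between -2.75 and -1.43, apart from all other probes, and the 4 Tmed3 values sit between 0.28 and 0.62.

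The alpha-type genes Tmed4 and Tmed9 are the closest relatives of Tmed11 by subfamily. Tmed4 (A_51_P291682) had log2 levels of 11.07, 11.32, 11.07 and 10.95 in knockout, against 11.42, 10.98, 11.32 and 10.80 in wild type. The levels overlapped fully, and the ratios of -0.35, 0.35, -0.25 and 0.14 split evenly around 0. The mean was -0.027 ± 0.11 (limma adjusted p = 0.901), with a 95% interval from -0.28 to 0.22.

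Tmed9, studied in human cells as a receptor that holds misfolded proteins in the early secretory pathway, gave ratios of -0.058, 0.066, -0.24 and 0.026. Its knockout and wild-type levels overlapped, at means of 11.61 ± 0.25 in knockout and 11.66 ± 0.35 in wild type (SD, n = 4 each). The mean ratio was -0.052 ± 0.060 (limma adjusted p = 0.623), with an interval from -0.19 to 0.087. Neither alpha-type relative was thus changed beyond the spread between arrays, and both intervals stopped far short of the Tmed11 mean of -2.30.

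Tmed2, the beta-type member and, with Tmed10, a subunit that mouse embryos need in order to survive, was read by 3 probes that gave like values. The brightest (A_52_P475825) had a ratio of 0.056 ± 0.083 (limma adjusted p = 0.706), with -0.16, 0.38, -0.036 and 0.043 on arrays 1 to 4. The other 2 probes had ratios of 0.036 ± 0.069 and -0.053 ± 0.071, with limma adjusted p of 0.779 and 0.674. On all 3 probes array 1 was the lowest and array 2 the highest, and knockout and wild-type levels overlapped.

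The gamma type is the most varied part of the family, and it held the only called gene. Tmed3 (A_51_P284244, NM_025360), a gamma-type subunit, rose in knockout. Its log2 levels were 13.81, 13.96, 14.02 and 13.89 in knockout, against 13.53, 13.48, 13.40 and 13.29 in wild type, so that the lowest knockout level lay above the highest wild-type level. The ratios were 0.28, 0.48, 0.62 and 0.60, all above 0, and the mean was 0.49 ± 0.064, a 1.41-fold rise (limma adjusted p = 0.0042, 95% interval 0.34 to 0.64). The probe ranked 252 from the highest of all tested probes. Levels of the 2 genotypes did not overlap for 7.18% of all tested probes, and Tmed3 was the 1 such probe among the 11.

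Tmed3 rose in extracts where 4 of 12 acinar markers were called higher, 7 were not called and Pnlip was called lower (-0.20). Among those not called, Prss2 had -0.098, Ptf1a -0.091 and Ctrl -0.037, and the others lay above 0, from 0.0078 to 0.30. The log2 ratio of the summed acinar level was 0.0068, 0.39, 0.40 and 0.55 on arrays 1 to 4, lowest on array 1 as for Tmed3, and the part of acinar RNA in the Tmed3 result was not tested. The call for Tmed3 held under all 15 alternative settings, with ratios from 0.45 to 1.02 and adjusted p up to 0.0403.

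Tmed6, a gamma-type member studied in beta-cell lines for a part in insulin secretion, had the next highest ratio, 0.32 ± 0.090, and did not pass the test (limma adjusted p = 0.0585). Its ratios were -0.0034, 0.62, 0.27 and 0.39. Array 1 showed no difference, with levels of 14.25 in both genotypes, and the other 3 arrays were above 0. Without array 1 the ratio was 0.43 with limma adjusted p = 0.0274. With all 4 arrays it was also called under eBayes with trend and robust (adjusted p = 0.041) and under median centring.

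Tmed5, a gamma-type member needed in cultured cells to bring GPI-anchored proteins into COPII vesicles, had the lowest ratio apart from Tmed11. Its ratios were -0.37, 0.025, -0.31 and -0.17, with a mean of -0.21 ± 0.070 (limma adjusted p = 0.097, 95% interval -0.37 to -0.048). The levels were 8.92, 9.07, 8.82 and 8.97 in knockout, against 9.29, 9.04, 9.13 and 9.14 in wild type, and they overlapped through array 2. Without array 2 the ratio was -0.29 with limma adjusted p = 0.0332, and with median centring it was 0.030 (limma adjusted p = 0.723). This was the dimmest probe of the family, with knockout signals of 585.5 to 842 and wild-type signals of 334 to 461.

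Tmed1, first described as a partner of the interleukin receptor family protein ST2, was the steadiest member. Its ratios of -0.0074, -0.059, -0.070 and -0.086 lay within a narrow band, the mean was -0.056 ± 0.045 (limma adjusted p = 0.468), and its levels overlapped. Tmed10, the delta-type member and the usual partner of Tmed2, had ratios of 0.065, 0.34, 0.11 and 0.099 on its brighter probe (A_51_P371993), above 0 on all 4 arrays. The mean was 0.16 ± 0.059, with an unadjusted p of 0.028 and limma adjusted p = 0.131. The second Tmed10 probe (A_51_P303238) had a mean of 0.10 ± 0.050 (limma adjusted p = 0.238), and both probes' levels overlapped between genotypes.

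**Figure D3:**
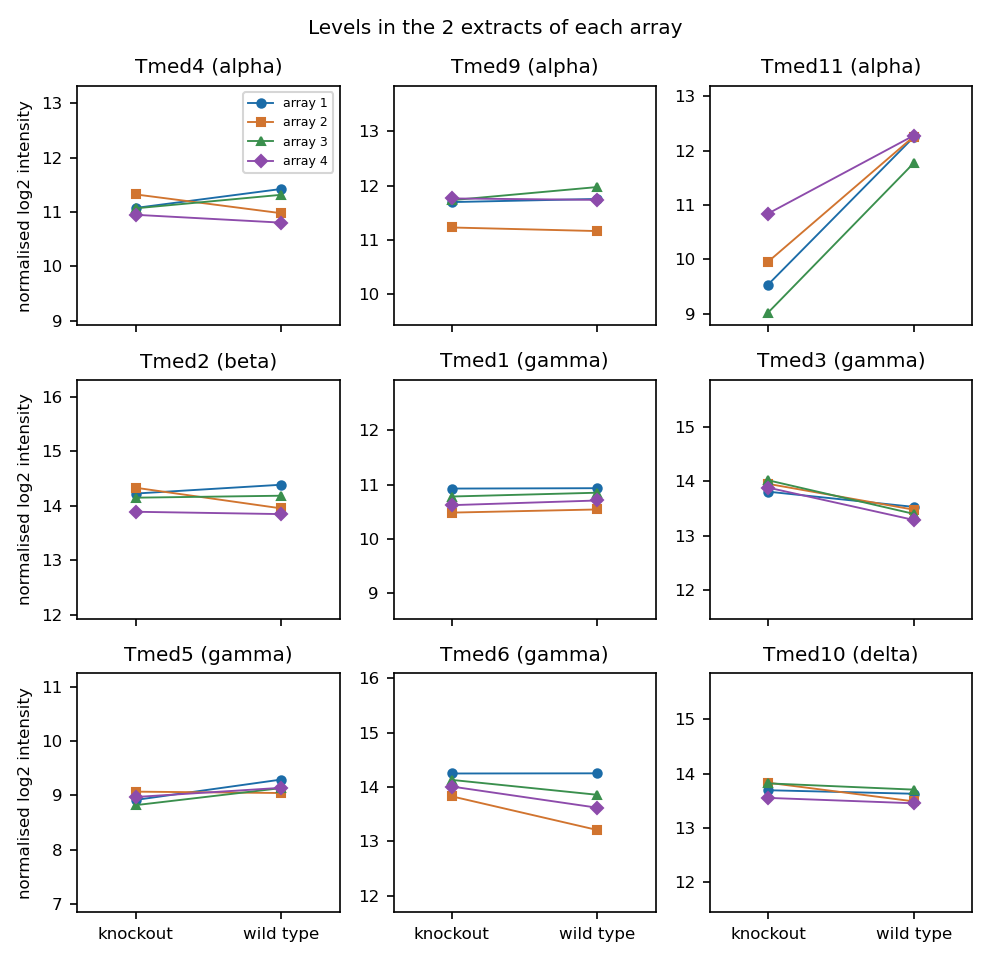
Normalised log2 intensity (y axis) in the knockout and wild-type extract of each array, joined by a line, for the brightest probe of each measured Tmed gene. All panels span the same width of log2 units around their own mean, and levels of different probes are not comparable. The lines climb steeply to wild type for Tmed11, are lower in wild type on all 4 arrays for Tmed3, and overlap in level between the genotypes in every other panel.

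The order of the 4 arrays was alike for many of the other probes. Array 2 gave the highest of the 4 ratios for 9 of the 11 other probes, and array 1 the lowest for 8 of 11. Over the 31478 probes with values on all 4 arrays, array 2 was highest for 30.4% and array 1 lowest for 28.4%. Several of these probes read the same gene and all share the same 8 extracts, so the counts describe these arrays only. Tmed11 did not have this order: its highest ratio was on array 4 and its lowest on array 3. Tmed3 did not have it at the top either, with its highest ratio on array 3, and Tmed1 had its highest ratio on array 1 and its lowest on array 4.

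The promoter of Tmed3, the called member that was not chosen by its value, is shown for context. RefSeq windows of 300 bases, 250 before and 50 after the gene start in GRCm38.p6, were at hand for 7 of the 10 members (8 windows, 2 of them for Tmed1), and not for Tmed2, Tmed7 and Tmed11. The 250 bases before the Tmed3 start lie at chr9:89705044-89705293 on the minus strand and are printed from 5′ to 3′ in lower case, with no capitals because no motif was found.
Tmed3 upstream: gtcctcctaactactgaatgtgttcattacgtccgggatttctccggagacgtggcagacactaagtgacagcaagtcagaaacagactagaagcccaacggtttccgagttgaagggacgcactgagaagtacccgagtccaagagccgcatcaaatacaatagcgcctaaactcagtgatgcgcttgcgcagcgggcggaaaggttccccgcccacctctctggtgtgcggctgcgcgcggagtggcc

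Both strands of the 8 windows were searched for 4 motifs, and 0 matches were found. TGACGTGG, the site of XBP1 and ATF6, is held by 0.676% of all 32851 RefSeq windows of this length, and TTGCATCA, a site of ATF4, by 0.895%. The ER stress element, CCAAT and CCACG with unspecified bases between them, is held by 0.119% and ACANNNTGT, the core of a steroid receptor palindrome, by 6.85%. ACANNNTGT reads the same on both strands, and none of the motifs overlapped another in these windows because none occurred. The search says only that these letters are not in these windows.

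The members are spread over the genome. Tmed11, Tmed5 and Tmed2 are on chromosome 5, Tmed6 on 8, Tmed1 and Tmed3 on 9, Tmed4 on 11, Tmed10 on 12, Tmed9 on 13 and Tmed7 on 18, by the RefSeq gene table. Cyp11a1 is also on chromosome 9. On chromosome 5, 16 protein-coding genes lie between Tmed11 and Tmed5 and 236 between Tmed11 and Tmed2. Of the 3 protein-coding neighbours on each side of Tmed11, only Fgfrl1, a receptor-like protein that binds fibroblast growth factors, had a probe above background. Its ratio was 0.30 ± 0.058 (limma adjusted p = 0.0178), and the call was lost without array 1, 3 or 4 (limma adjusted p 0.0502 to 0.0677). Slc26a1 and Vmn2r8 were well above background on 0 arrays in either genotype, and Rnf212, Vmn2r9 and Vmn2r10 had no named probe.

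Genes with ratios like those of Tmed11 were searched only among named genes, each through its brightest tested probe with values on all 4 arrays. Other probes were outside this search. Closest by root mean square difference over the 4 arrays were Chac1, Gp2, Dmbt1, Msmo1 and Sugct. Chac1, an enzyme that degrades glutathione, was nearest at 0.766 log2 units, with ratios of -1.85, -2.53, -1.87 and -2.31. Gp2, the GPI-anchored glycoprotein of the zymogen granule membrane, and Dmbt1, a secreted scavenger receptor protein, both followed at 1.11, with mean ratios of -1.52 and -1.37. Msmo1, an enzyme of cholesterol synthesis, lay at 1.29 with a mean of -1.08. Sugct, a mitochondrial CoA transferase, lay at 1.37 with a mean of -1.11 on its brightest probe, while its other probe had 0.043. These genes were picked for low ratios, so no test is given. Gp2 had its lowest ratio on array 4 (-1.92), the array where Tmed11 had its highest.

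The machinery with which p24 proteins work was then read from the same fit, each gene through its brightest tested probe. Over all 15524 genes with a tested probe, 4.52% were called lower and 8.31% higher in knockout, with a median ratio of 0.013. Of 15 COPI coat genes, which form the vesicles that return p24 proteins to the ER, 0 were called lower and 1 higher, with a median of 0.064. The called gene was Copg2, a gamma-COP subunit, at 0.32 ± 0.072 (limma adjusted p = 0.0277), while its other probes had 0.25 and 0.054. Copg1, the paralogous gamma-COP subunit, had 0.18 ± 0.057 (limma adjusted p = 0.0798). The Copg2 call was lost without array 2, 3 or 4 (limma adjusted p 0.0654 to 0.0901).

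Of 13 measured COPII genes, which form the export vesicles, 2 were called lower and 0 higher, with a median of -0.029. Sec23a, an inner coat subunit, fell by 0.36 on the log2 scale (ratio -0.36 ± 0.058, limma adjusted p = 0.0088), with -0.41, -0.23, -0.50 and -0.29 on arrays 1 to 4. Its second probe had -0.15 ± 0.054 (limma adjusted p = 0.122). Sec24c, a cargo-binding coat subunit, fell by 0.20 on the log2 scale (limma adjusted p = 0.0321). The Sec24c call was lost without array 1, 3 or 4 (limma adjusted p 0.0943 to 0.119), and with median centring the sign turned to 0.29. Sec23b and Sec24d had ratios of -0.19 and -0.21 and did not pass (limma adjusted p = 0.113 and 0.112), the value for Sec24d resting on 3 arrays.

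Of 16 other cargo receptors of the ER and Golgi, 0 were called lower and 1 higher, with a median of 0.044. Ergic3, a cycling receptor of the intermediate compartment, had 0.32 ± 0.066 (limma adjusted p = 0.0227), with 0.083, 0.46, 0.39 and 0.33 on the 4 arrays. That call was lost without array 2, 3 or 4 (limma adjusted p 0.0629 to 0.0836). Mcfd2, the soluble partner of the lectin receptor Lman1, had -0.27 ± 0.085 on its brightest probe (limma adjusted p = 0.0848) and -0.30 ± 0.065 on its other probe (limma adjusted p = 0.0257). Lman1 itself had -0.18 ± 0.082 (limma adjusted p = 0.198), and was named after its value was seen.

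The GPI-anchored proteins are the best known cargo of the family, and 32 of 34 were measured. Of these, 3 were called lower, Gp2 among them, and 4 higher, with a median of -0.075. Gp2 had ratios of -1.35, -1.56, -1.25 and -1.92, below 0 on all 4 arrays. It was the only one called at a fold of 1.5 or more. Gp2 was already a known low gene of these arrays when the list was made, so no p is given for it. Reck, an inhibitor of matrix metalloproteinases, had -0.24 ± 0.048 (limma adjusted p = 0.0203). Gpc3, a glypican, had 0.30 ± 0.054 (limma adjusted p = 0.0127), and Hyal2, a hyaluronidase, had 0.27 ± 0.048 (limma adjusted p = 0.0131). The remaining calls were Ly6a at -0.32, Gfra1 at 0.41 and Rgma at 0.19, with limma adjusted p of 0.039, 0.0264 and 0.035, named after their values were seen. The Reck call was lost without array 1, 2 or 3 (limma adjusted p 0.0516 to 0.0768), that of Gpc3 without array 4 (0.053), and that of Hyal2 without array 1 (0.0529) or 3 (0.0583). Ly6a, Gfra1 and Rgma were not followed singly. With 1 array left out, 1 to 3 genes of the list were called higher and 1 to 2 lower.

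Of 8 measured genes that attach or remodel the GPI anchor, 0 were called lower and 1 higher, with a median of 0.10. Pgap3, which trims a fatty acid of the anchor in the Golgi, had 0.34 ± 0.056 (limma adjusted p = 0.0094), with 0.19, 0.33, 0.45 and 0.41 on the arrays. Pgap2, which acts with Pgap3 in anchor remodelling, had 0.16 ± 0.054 (limma adjusted p = 0.0978). Pigu, a subunit of the transamidase that attaches the anchor, had -0.17 on its brightest probe and 0.17 on its other, neither called.

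Among the listed Golgi stacking proteins, Golga2 had 0.17 ± 0.048 (limma adjusted p = 0.0617), Gorasp1 had -0.011 and Gorasp2 had -0.10, and 0 of 3 were called. Of 5 genes outside the family that carry a GOLD domain, 0 were called in either direction on their brightest probe, with a median of -0.021. Single probes of these genes differed from that. Tmed8, which shares the family's name and not its membrane span, had -0.044 on its brightest probe and -0.22 on its other (limma adjusted p = 0.0242). Of the 4 dimmer Fyco1 probes, which had ratios of 0.18 to 0.26, 2 were called higher. A dimmer probe of Sec14l1 had -0.40 (limma adjusted p = 0.0342).

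**Figure D4:**
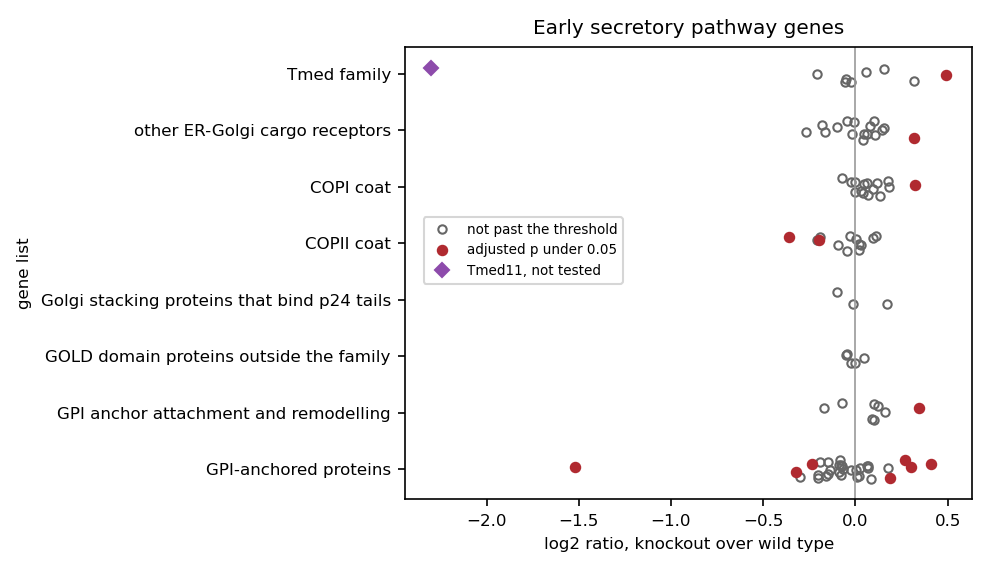
Log2 ratio of knockout over wild type (x axis) for the brightest probe of each gene in the Tmed family and in 7 lists of early secretory pathway genes (y axis), filled where limma's adjusted p was under 0.05. All genes plotted lie within 0.5 of 0 except Tmed11 (purple) at -2.30 and Gp2, a GPI-anchored protein, at -1.52.

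**Figure D5:**
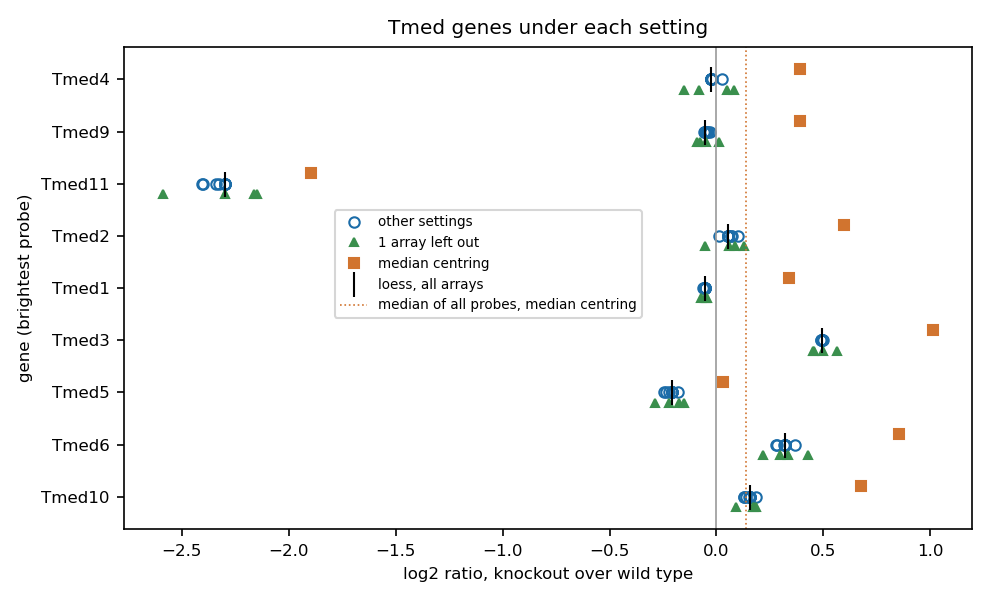
Log2 ratio of the brightest probe of each measured Tmed gene under the loess setting with all arrays (black bar), other settings (open circles), each array left out (triangles) and median centring (squares). The dotted line is the median of all tested probes under median centring. Tmed11 stays between -2.59 and -1.89, and Tmed3 between 0.45 and 1.02, while median centring moves every gene to the right.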

How the data were processed

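RNA was measured in 4 knockout and 4 wild-type pancreas extracts, which the labels call biological replicates. The titles number the arrays 1 to 4, whereas the description gives all 4 the same replicate number. The titles were followed, and p-values measure the spread between these 4 arrays. Per the submitters' processing notes, spots were extracted by Agilent Feature Extraction, version 10.5.1.1. The deposited files hold intensity (median signals, and signals processed by that software) and a log10 ratio of knockout (red) over wild type (green), per the file headers. All arrays were on 1 slide with 1 scan date, so no batch could be compared.

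Median signals were corrected with normexp (offset 50) and normalised by loess within each array in limma 3.58.1 under R 4.3.3, leaving out the 599 to 988 spots per array marked non-uniform. A probe was tested if well above background in red on at least 3 arrays or in green on at least 3, and fitted with lmFit and eBayes against 0. Symbols came from matching the array's accessions to RefSeq (GRCm38.p6) for 25097 probes (61.0%), and the 17305 genes named this way include the 9 members with a probe. The array design names build mm9, so no probe coordinates are given.

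The members and gene lists were chosen with earlier results of these data known. Named genes were all members, the 6 neighbours, the 5 nearest genes, and per list up to 4 genes with the smallest p and any called at a fold of 1.5 or more. The fit was tested on simulated data. Some marker genes are not reported here by name.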

Additional observations from a re-analysis of the deposited data

How the results depend on the processing

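Tmed11 kept its sign under all 15 alternatives, from -2.41 to -1.89 with all arrays and from -2.59 to -2.15 with 1 array left out. Of the 11 other Tmed probes, 10 were called higher with median centring and 2 with eBayes by trend and robust, which added Tmed6, and 1 to 2 with 1 array left out. None was called lower except Tmed5 without array 2 (0 to 1 with 1 array left out). Median centring turned the sign of Tmed1 (0.34), the third Tmed2 probe (0.47), Tmed4 (0.39), Tmed9 (0.39) and Tmed5 (0.030, not called). It also turned Acbd3 (0.36), Fyco1 (0.50), Gorasp2 (0.36), Mcfd2 (0.25), Pigu (0.22), Sec23b (0.25), Sec24c (0.29) and Sec24d (0.21), and, without a call, Lman2l (0.15) and Tmed8 (0.087). Median centring leaves a trend with brightness. Over all tested probes its median ratio was -0.27 below a mean log2 brightness of 8, 0.20 from 8 to 10 and 0.39 from 10 to 12. It was 0.49 from 12 to 14 and 0.59 above 14, against -0.0018 to 0.011 in these bins after loess.

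Over all probes, 3501 were called (2160 higher, 1341 lower). The count was 1991 with the scanner software's processed signals (1222 higher, 769 lower), 2059 with its log ratio (1315 higher, 744 lower), 23560 with median centring (15460 higher, 8098 lower) and 1056 with scaling between arrays (645 higher, 411 lower). With 1 probe per gene, which tests fewer features, it was 2260 (793 lower), and with the mean of a gene's probes 2245 (750 lower). With single channels and no replicate block it was 154 (110 higher, 44 lower), and with 1 array left out 1500 to 2433 (924 to 1360 higher, 563 to 1073 lower). Among the calls of genes named by the rule above, scaling between arrays removed Copg2, Ergic3, Gpc3, Reck and Sec24c. The scanner software's signals and log ratio removed Ergic3 and Sec24c, and the mean of a gene's probes removed Copg2. The eBayes fit with trend and robust removed Sec24c, and median centring removed Reck. Single channels removed Ergic3, Sec24c, Hyal2, Pgap3, Sec23a, Copg2, Gpc3, Reck and the neighbour Fgfrl1. Ly6a, Gfra1 and Rgma were not followed singly, so their losses are not listed. GPI-anchored calls were 4 higher and 3 lower in the main fit, and 3 and 2 with the scanner software's signals or log ratio. They were 1 and 1 with scaling between arrays, 0 and 1 with single channels, and 19 and 5 with median centring. Under median centring the higher and lower calls were 15 and 0 of 15 COPI genes, and 11 and 2 of 13 COPII genes. For anchor attachment and remodelling they were 6 and 0 of 8, for GOLD domain genes 4 and 0 of 5, and for Golgi stacking 2 and 0 of 3. Without a cause shown above, the cause was not tested. The number of arrays limits the precision, and the fixed dye orientation applies to every value.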
